A study of Mus musculus with 12 samples.

Results

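The 10 genes of cellular iron handling described here were followed across 3 culture media. They are Tfrc, Steap3 and Slc11a2 for uptake, Fth1, Ftl1 and Ncoa4 for storage, Slc40a1 for export, and Aco1, Ireb2 and Fbxl5 for sensing. The members were chosen by symbol, and each symbol was found in 1 locus of the 26271 loci in the authors' deposited table, so that 10 of 10 were measured and 10 of 10 were tested by the authors in each comparison. For a symbol in several loci the row is chosen by the highest summed FPKM, which here had nothing to choose. The list itself was drawn up with earlier results from this table known, and the authors' tests of its genes are given as a description of these libraries, not as independent evidence.

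The cells were C2C12, an established line of mouse myoblasts, grown for 24 h in 1 of 3 media. High glucose medium held glucose at 25 mM, low glucose medium held it at 5 mM, and galactose medium held 10 mM galactose. All 3 media were DMEM with 1 mM sodium pyruvate, 10% fetal bovine serum and 1% penicillin/streptomycin, and the labels name no genetic change in any group. Each group had 4 polyA RNA libraries, which makes 12. The series' design text speaks of single muscle stem cells kept for longer, and the sample labels were followed. Whether a group's libraries are separate cultures is not in the labels, so the authors' p-values may measure technical spread only.

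Values are FPKM, by name fragments scaled to transcript length and to the mapped total. The normalization used is not given in the sources used here. There was 1 pooled value per group and none per library, so no SD or depth can be given with any value. Calls rest on the authors' q, adjusted over all 44006 tests in the table, with a threshold of 0.05. The lowest q in the table was 0.000239, shared by 9204 tests, and "the lowest q" below means that value. Myoblast identity was checked on 5 markers, Myod1, Myf5, Des, Pax7 and Cdh15, whose levels summed to 745 FPKM in high glucose, 487 FPKM in low glucose and 394 FPKM in galactose in the authors' deposited table. They were called lower in 4 of 5 cases from high to low glucose and in 5 of 5 cases in galactose against either glucose medium, and their part in the results below was not tested. Macrophage markers with a locus of their own summed to between 0.267 and 1.01 FPKM, with Adgre1 (F4/80, listed as Emr1) at 0 in each group in the authors' deposited table. That sum leaves out Cd68, which shares its locus with Eif4a1. The shared locus had 72.7, 96.0 and 98.6 FPKM in high glucose, low glucose and galactose, and the part of Cd68 in it cannot be told apart. It was called higher in low glucose and in galactose than in high glucose. Endothelial, adipocyte and hepatocyte markers summed to at most 0.031, 0.531 and 0.0401 FPKM. Erythroid markers with a locus of their own summed to 4.82, 3.19 and 2.07 FPKM in high glucose, low glucose and galactose, most of it the receptor gene Epor, in the authors' deposited table. The shared loci left out, Hba-a1 with Hba-a2 and Hbb-b1 with Hbb-b2, had at most 0.408 and 0 FPKM. In bulk RNA, fewer cells of a kind and less RNA per cell cannot be told apart.

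Iron travels in blood bound to transferrin. The transferrin receptor, Tfrc, carries it into endosomes, where a reductase such as Steap3 converts it to the ferrous form and Slc11a2 (DMT1) moves it to the cytosol. Surplus iron is kept inside ferritin, a shell of heavy (Fth1) and light (Ftl1) chains that is delivered to lysosomes by the receptor Ncoa4, or leaves the cell through ferroportin, Slc40a1. Muscle is a large user of iron, for myoglobin and for the respiratory chain. The iron regulatory proteins IRP1 (Aco1) and IRP2 (Ireb2) bind hairpins called iron-responsive elements when iron is scarce. Bound to the 5′ UTR they block translation, and bound to the 3′ UTR of Tfrc they protect the mRNA from decay. Fbxl5 is the iron-binding ubiquitin ligase subunit that removes IRP2 when iron is plentiful.

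The hairpins are shown because the members with a match differ in its side. A match lay in the 5′ UTR of Fth1, Ftl1 and Slc40a1, and in the 3′ UTR of Tfrc alone among the 10 members. The hairpins were found in GENCODE M21 transcripts (GRCm38, the build of mm10). The pattern was the loop CAGTGN between 5 pairing bases on each side, with G-T pairs allowed, and a C before the stem. Whether that C pairs with a base on the other side was not checked. Capitals mark the 6 bases of the loop, and each run is 29 bases, 5′ to 3′ on the mRNA's strand, written as DNA.
Fth1, 5′ UTR, chr19:9982732-9982760, plus strand: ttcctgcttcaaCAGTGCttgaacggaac
Ftl1, 5′ UTR, chr7:45459779-45459807, minus strand: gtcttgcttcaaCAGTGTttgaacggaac
Slc40a1, 5′ UTR, chr1:45925465-45925493, minus strand: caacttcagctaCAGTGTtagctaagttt
Tfrc, 3′ UTR, chr16:32631219-32631247, plus strand: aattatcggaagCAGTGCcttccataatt
Tfrc, 3′ UTR, chr16:32631598-32631626, plus strand: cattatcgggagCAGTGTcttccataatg
Tfrc, 3′ UTR, chr16:32631663-32631691, plus strand: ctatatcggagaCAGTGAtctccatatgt
Tfrc, 3′ UTR, chr16:32631710-32631738, plus strand: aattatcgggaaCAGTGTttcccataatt

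The 2 ferritin elements shared 26 of 29 bases, and the Slc40a1 element shared 13 of 29 with each of them. Among the 4 Tfrc elements, pairs shared from 18 to 25 of 29 bases. By the same pattern, 28 of 21875 genes with coding transcripts (0.128%) held a match in a 5′ UTR and 127 (0.581%) in a 3′ UTR. A match is a description of letters. The other 6 members had none in the transcripts scanned, which says nothing of whether they are bound or hold an element outside this pattern. The measurements below are of mRNA level, while the 5′ elements are known to act on translation.

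In low glucose, the uptake receptor was higher and the exporter lower than in high glucose, while ferritin mRNA was not called. In galactose, both ferritin loci, Steap3 and Fbxl5 were higher than in high glucose, and Tfrc was slightly lower. Slc40a1 was not called different between galactose and high glucose. Slc11a2, Aco1 and Ncoa4 were not called in any comparison.

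**Figure D1:**
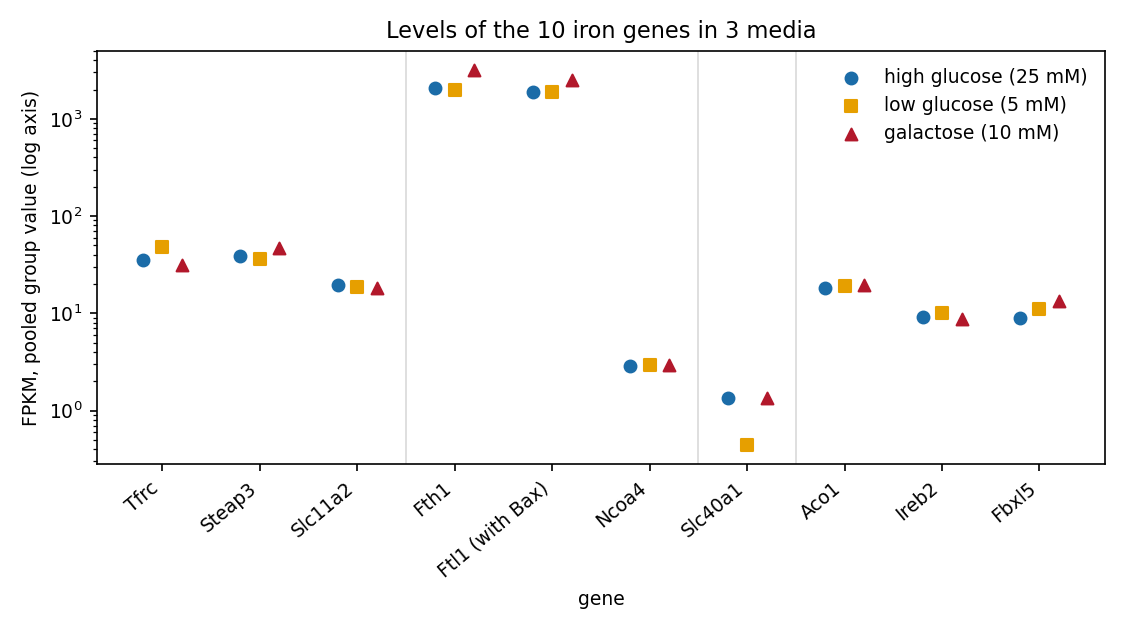
The pooled FPKM value of each gene (log axis) is plotted for high glucose (circles), low glucose (squares) and galactose (triangles), in the order uptake, storage, export and sensing, with no error bars since the table has 1 value per group. Fth1 and the Ftl1 locus lie far above the other 8 genes in each medium, and Slc40a1 is the only gene below 1 FPKM, in low glucose.

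From high to low glucose, 4 of 10 members were called, 3 higher and 1 lower, against 36.4% of all 14699 tested loci (18.3% higher and 18.2% lower). From high glucose to galactose, 5 of 10 were called, 4 higher and 1 lower, against 51.3% of 14812 (26.5% higher and 24.8% lower). From low glucose to galactose, 7 of 10 were called, 5 higher and 2 lower, against 33.3% of 14495 (17.4% higher and 16.0% lower). The first 2 shares lie near the background and the third above it; nothing is read from that difference, since the members were picked with results known. The 3 comparisons share their groups, so a low value in low glucose enters the first and the last. Median log2 changes of the members were 0.03, 0.07 and 0.17 in that order, beside 0.01, 0.01 and 0.01 for all tested loci.

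**Figure D2:**
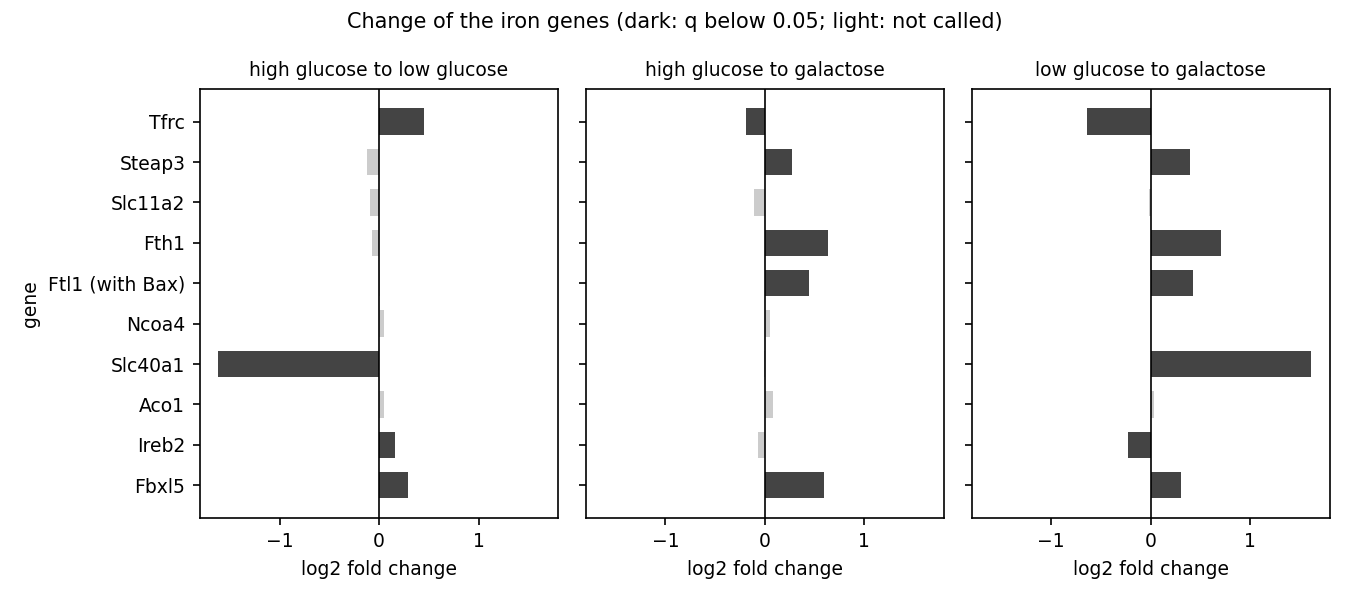
Bars give the log2 fold change of each gene in the authors' deposited table for the 3 comparisons, dark where q is below 0.05 and light where it is not. Tfrc and Slc40a1 point in opposite directions in low glucose and both have the other sign from low glucose to galactose, while Fth1, Ftl1 and Steap3 have dark bars in both comparisons with galactose.

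Tfrc, whose locus spans chr16:32608896-32632796, stood at 35.3 FPKM in high glucose, 48.5 FPKM in low glucose and 31.1 FPKM in galactose in the authors' deposited table. Low glucose was thus the highest of the 3 media and galactose the lowest, and each pair of neighbours in that order was called. In low glucose Tfrc rose 1.37-fold over high glucose, a log2 change of 0.46 at the lowest q in the authors' deposited table. In galactose it was 1.14-fold lower than in high glucose (log2 change -0.18, q = 0.0141) and 1.56-fold lower than in low glucose (log2 change -0.64, the lowest q), also read from the authors' deposited table. With the groups scaled to equal summed FPKM, the log2 change of Tfrc from high glucose to galactose was -0.36. These same 3 calls were found at 52 of 14243 loci tested in every comparison (0.365%), higher in low glucose and then lower in galactose than in either glucose medium.

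Steap3, the endosomal ferrireductase, had 39.0 FPKM in high glucose, 35.8 FPKM in low glucose and 47.0 FPKM in galactose in the authors' deposited table. Galactose was highest, and the 2 glucose media were not called different (log2 change -0.12, q = 0.134). Its galactose value was 1.21-fold above high glucose and 1.31-fold above low glucose, both at the lowest q in the authors' deposited table. The log2 change of Steap3 from high glucose to galactose, 0.27, was 0.098 with equal summed FPKM. Slc11a2, the endosomal iron transporter, was at 19.7, 18.6 and 18.3 FPKM in high glucose, low glucose and galactose in the authors' deposited table. None of its comparisons was called, with q between 0.227 and 0.863. The receptor and the reductase had different calls. From high to low glucose only Tfrc was called of the 2, and from high glucose to galactose Tfrc was lower and Steap3 higher. The difference between the 2 genes was not tested.

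Fth1, the ferritin heavy chain with ferroxidase activity, was listed at 2063 FPKM in high glucose, 1966 FPKM in low glucose and 3211 FPKM in galactose in the authors' deposited table. It ranked eighth among all loci in both glucose media and sixth in galactose, by FPKM. The 2 glucose values were not called different (log2 change -0.07, q = 0.449). Galactose was 1.56-fold above high glucose and 1.63-fold above low glucose, log2 changes of 0.64 and 0.71 at the lowest q in the authors' deposited table. With equal summed FPKM, the log2 change of Fth1 from high glucose to galactose was 0.47. The locus interval, chr19:9980600-10001633, is longer than the gene and is also listed for the neighbour Best1, which has a row of its own.

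The light chain Ftl1 shares its locus with the apoptosis gene Bax (chr7:45457897-45466925), so its value holds reads of both genes and their shares cannot be told apart in the table. That locus had 1866 FPKM in high glucose, 1883 FPKM in low glucose and 2530 FPKM in galactose in the authors' deposited table. As for Fth1, the glucose media were close (log2 change 0.01, q = 0.906) and galactose stood apart. The rise was 1.36-fold over high glucose and 1.34-fold over low glucose, both at the lowest q in the authors' deposited table. Scaled to equal summed FPKM, the log2 change of the Ftl1 locus from high glucose to galactose went from 0.44 to 0.27. Ferritin genes have processed copies elsewhere in the genome, and how the authors assigned reads shared with them is not given in the sources used here. The ferritin-like gene Fthl17 was listed at 0 in all 3 groups.

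Both ferritin loci together came to 3928 FPKM in high glucose, 3849 FPKM in low glucose and 5741 FPKM in galactose in the authors' deposited table. Set against the sum of all loci, which itself was higher in galactose, this was 0.717%, 0.661% and 0.930%. The ratio of Fth1 to the Ftl1 locus, per length, was 1.11 with high glucose, 1.04 with low glucose and 1.27 with galactose. Heavy chain mRNA thus exceeded the combined light chain locus in each medium, by most in galactose, a ratio for which no error can be given. Fth1 stood 58.4 times above Tfrc in high glucose, 40.6 times in low glucose and 103 times in galactose. Fth1 relative to Tfrc mRNA was therefore lowest in low glucose and highest in galactose, again with no test. Ratios to the other uptake genes, Steap3 and Slc11a2, were not computed.

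Ncoa4, the receptor that carries ferritin to lysosomes, was listed at only 2.86, 2.96 and 2.97 FPKM in high glucose, low glucose and galactose in the authors' deposited table. Its 3 values differed by no more than 1.04-fold and none was called (q from 0.670 to 0.959).

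Slc40a1, the only known cellular iron exporter, was the least abundant member, at 1.35 FPKM in high glucose, 0.438 FPKM in low glucose and 1.34 FPKM in galactose in the authors' deposited table. Low glucose stood alone as the low value, and high glucose and galactose were not called different (log2 change -0.01, q = 0.954). Slc40a1 fell 3.07-fold from high to low glucose and rose 3.05-fold from low glucose to galactose, both at the lowest q in the authors' deposited table. These were the only 2 of the 16 member calls that reached 2-fold, a size reached with a call by 3.31% of tested loci between the glucose media, by 8.43% between high glucose and galactose, and by 2.86% between low glucose and galactose. Of all tested loci, 1.46% changed by more from high to low glucose and 1.28% by more from low glucose to galactose. With 1 FPKM added to each value the 2 log2 changes shrank from -1.62 to -0.71 and from 1.61 to 0.70, since the levels lie near 1 FPKM. A call pattern of lower, not called and higher was shared by 262 of 14243 loci (1.84%). The ratio of Tfrc to Slc40a1, the uptake receptor to the exporter, was 26.2 with high glucose, 111 with low glucose and 23.3 with galactose.

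**Figure D3:**
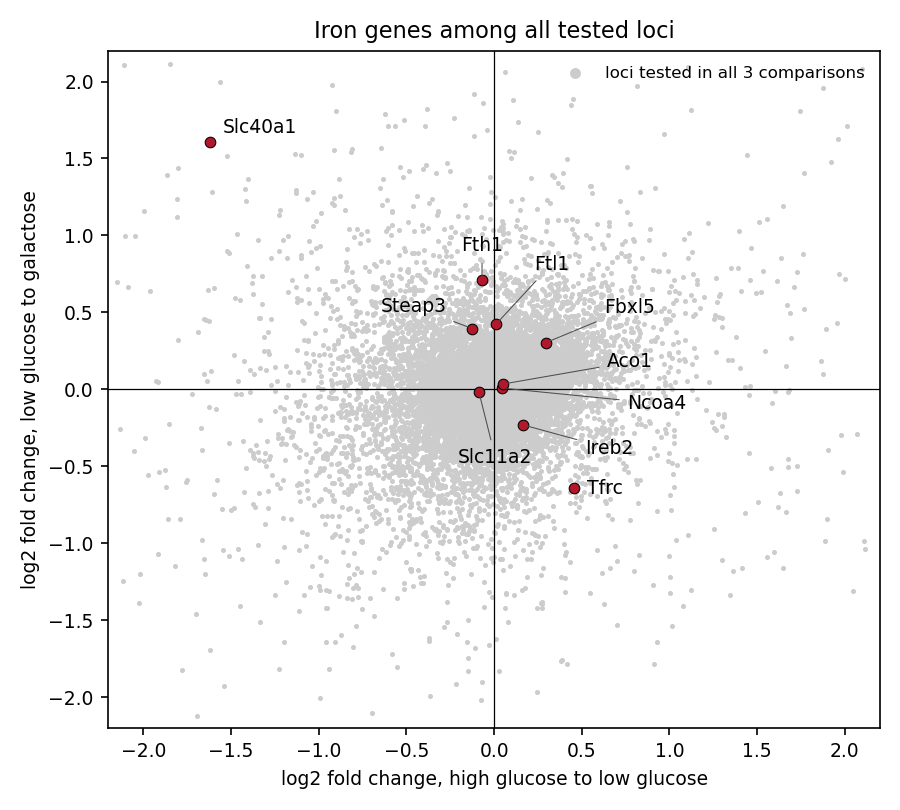
Each grey point is 1 of 14243 loci tested in all 3 comparisons, placed by its log2 fold change from high to low glucose (x axis) and from low glucose to galactose (y axis); red points are the iron genes, and 63 loci lie outside the axes. Slc40a1 lies far to the upper left and Tfrc to the lower right, and Fth1, Ftl1 and Steap3 lie above 0 on the y axis and near 0 on the x axis. Both axes use the low glucose value, which alone tilts points towards that diagonal.

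Of the sensors, Aco1 encodes IRP1, which is a cytosolic aconitase when it holds an iron-sulfur cluster. Aco1 was at 18.2, 18.9 and 19.3 FPKM in high glucose, low glucose and galactose in the authors' deposited table, and no comparison was called (q from 0.321 to 0.733). Ireb2, encoding IRP2, was at 9.09 FPKM in high glucose, 10.2 FPKM in low glucose and 8.67 FPKM in galactose in the authors' deposited table. Low glucose was highest, as for Tfrc, but the steps were small. Its rise of 1.12-fold from high to low glucose lay just inside the threshold (q = 0.0467) and did not pass when p-values were adjusted within that comparison (0.052). Its log2 change there, 0.16, was 0.075 with equal summed FPKM. From low glucose to galactose it fell 1.17-fold (q = 0.00283), and high glucose and galactose were not called different (q = 0.472), in the authors' deposited table. Per length, Aco1 mRNA exceeded Ireb2 mRNA 2.002-fold, 1.85-fold and 2.23-fold in high glucose, low glucose and galactose.

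Fbxl5, the ligase subunit that targets IRP2, rose stepwise, with 8.93 FPKM in high glucose, 11.0 FPKM in low glucose and 13.5 FPKM in galactose in the authors' deposited table. Each step was called at the lowest q, with fold changes of 1.23 and then 1.23, and galactose was 1.51-fold above high glucose. The log2 change of Fbxl5 from high glucose to galactose, 0.60, was 0.43 with equal summed FPKM. Fbxl5 was the only member called higher in all 3 comparisons, calls that 896 of 14243 tested loci (6.29%) shared. In galactose Fbxl5 was higher than in low glucose where Ireb2 was lower, while in low glucose both were higher than in high glucose.

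Of the 10 members, 3 were called higher in galactose than in either glucose medium while the glucose media were not called different (Fth1, the Ftl1 locus and Steap3), calls shared by 910 of 14243 loci (6.39%). Tfrc and Ireb2 had low glucose highest, Slc40a1 had it lowest, and Fbxl5 was highest in galactose and lowest in high glucose. Members with a matching hairpin did not share 1 order, since Fth1, Slc40a1 and Tfrc each had another.

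Loci with the most similar changes were looked up among 7645 loci with 1 symbol and a mean of at least 5 FPKM. The measure was the distance between pairs of log2 changes over the 3 group values. Closest to Tfrc were Arsj, a locus of Bdnf and Efnb1, at distances of 0.03, 0.09 and 0.09. Arsj, for one, had 8.66, 11.99 and 7.55 FPKM in high glucose, low glucose and galactose in the authors' deposited table. Closest to Fth1 were Abcb6, Grina and Slc39a11, at distances of 0.05, 0.06 and 0.06. Abcb6 had 20.2, 18.9 and 29.9 FPKM in the same order in the authors' deposited table. For Slc40a1 the closest of these candidates were Trim54, Aldh3a1 and Enho, at 0.67, 0.74 and 0.79. Slc40a1 itself lies below the 5 FPKM minimum, so loci at its own level were not searched. Whether it has closer neighbours there is therefore not known. With only 3 values per locus, likeness of this kind is a description.

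In promoter windows of RefSeq (GRCm38.p6, 250 bases before to 50 after a start), 14 windows covered 7 members. Windows for Slc11a2, Slc40a1 and Fbxl5 were not analysed here. The hypoxia response core ACGTG, on either strand, was in 4 windows, of Tfrc and Ncoa4, and in 19.6% of all 32851 windows; the Tfrc windows share their site. The antioxidant response core TGACNNNGC was in 1 window, of Ncoa4, and in 12.4% of all. Neither the E-box CACGTG (7.15% of all windows) nor the C/EBP-ATF core TGATGNAA (3.97%) was found in the members' windows, and the E-box letters include ACGTG. The loop letters CAGTGN were in 6 windows, of Ftl1, Steap3 and Tfrc, and in 55.8% of all. A match is no binding site, and elements farther away were not searched.

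Other genes of iron metabolism were read from 8 lists of 122 symbols, found in 121 loci. Of the tested loci, 21 were called higher and 16 lower of 105 from high to low glucose (35.2% called). From high glucose to galactose, 42 were higher and 14 lower of 106 (52.8%), and from low glucose to galactose 35 were higher and 8 lower of 105 (41.0%). These shares stand beside 36.4%, 51.3% and 33.3% for all tested loci. The total share called thus lay near the background in the first 2 comparisons. By direction, all tested loci had 18.3% higher and 18.2% lower from high to low glucose. Their shares were 26.5% and 24.8% from high glucose to galactose, and 17.4% and 16.0% from low glucose to galactose. In both comparisons with galactose, higher calls outnumbered lower ones by more in the lists than among all tested loci. The lists were written with earlier results known, and no test of a list was made.

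**Figure D4:**
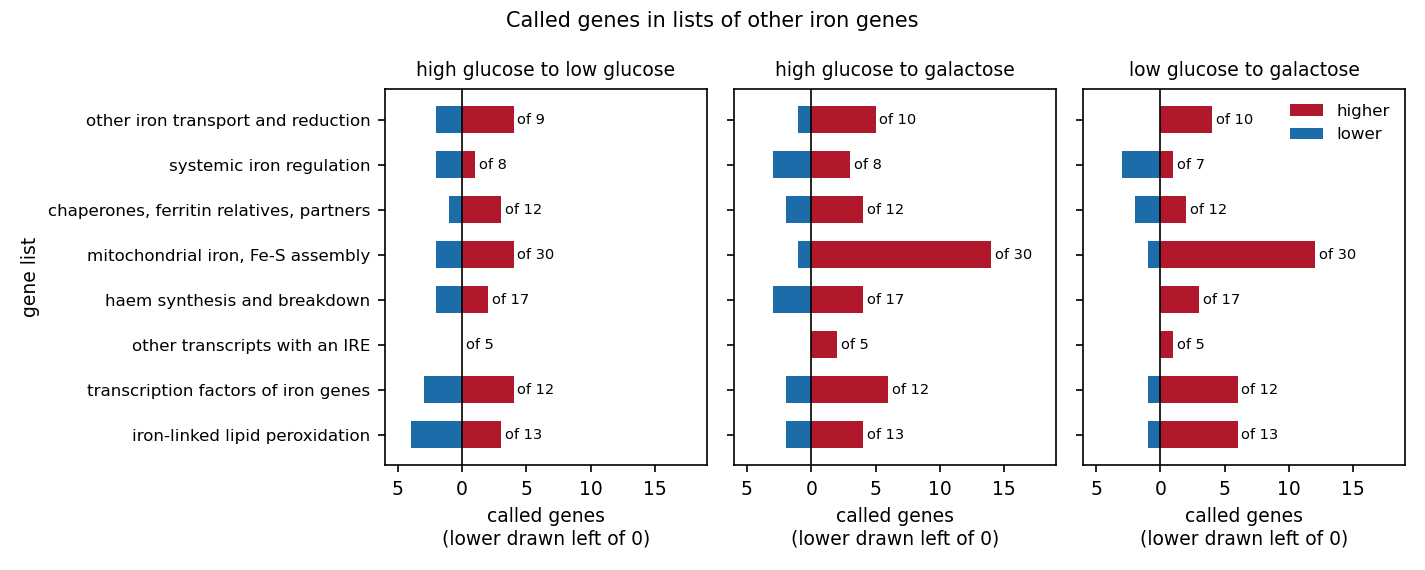
For each list of iron genes, bars give the number of genes called higher (right of 0) or lower (left of 0) in the 3 comparisons, with the number tested beside the bar. Mitochondrial iron and iron-sulfur assembly has 14 of 30 higher from high glucose to galactose and 4 of 30 higher from high to low glucose.

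Among other transporters and reductases, 5 of 10 tested were higher and 1 lower from high glucose to galactose, with a median log2 change of 0.19, beside 26.5% higher and 24.8% lower among all tested loci. From high to low glucose 4 of 9 were higher and 2 lower (18.3% and 18.2% of all), and from low glucose to galactose 4 of 10 were higher and 0 lower (17.4% and 16.0%). The 1 lower in galactose than in high glucose was Cp, a ferroxidase, named after its values were seen. Steap1, a relative of Steap3, went from 30.7 FPKM in high glucose to 44.99 FPKM in low glucose and 67.4 FPKM in galactose in the authors' deposited table. Slc39a14 (ZIP14), which takes up iron not bound to transferrin, was at 19.6, 23.8 and 25.6 FPKM in that order, called in both steps from high glucose in the authors' deposited table. Trf, the transferrin gene, was listed at 0 in all 3 groups.

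Among genes of mitochondrial iron and iron-sulfur clusters, 14 of 30 were called higher and 1 lower (Abcb10, named after its values were seen) from high glucose to galactose, with a median log2 change of 0.18, beside 26.5% higher and 24.8% lower among all tested loci. From high to low glucose 4 of 30 were higher and 2 lower (18.3% and 18.2% of all), and from low glucose to galactose 12 of 30 were higher and 1 lower (17.4% and 16.0%). The mitochondrial iron importer Slc25a37 (mitoferrin 1) went from 23.5 to 28.4 and 48.1 FPKM in high glucose, low glucose and galactose in the authors' deposited table. Its relative Slc25a28 (mitoferrin 2) was at 14.7, 16.5 and 21.2 FPKM, called in galactose only against either glucose medium in the authors' deposited table. Hspa9, the chaperone that passes clusters on, went from 213 to 366 and 543 FPKM, and the glutaredoxin Glrx5 from 117 to 157 and 186 FPKM in the authors' deposited table.

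Among the haem genes, 4 of 17 were called higher and 3 lower from high glucose to galactose, both shares below those of all tested loci (26.5% and 24.8%). From high to low glucose 2 of 17 were higher and 2 lower (18.3% and 18.2% of all tested loci). From low glucose to galactose 3 of 17 were higher and 0 lower (17.4% and 16.0%). The 3 lower in galactose than in high glucose were Urod, Ppox and Fech, named after their values were seen, and Ppox and Fech were also called lower in low glucose than in high glucose. Hmox1, the haem oxygenase that frees iron from haem, was at 99.7 FPKM in high glucose, 123 FPKM in low glucose and 264 FPKM in galactose in the authors' deposited table. Blvrb, a biliverdin reductase, had 33.3, 32.2 and 63.6 FPKM, as read from the authors' deposited table. Blvra, the other biliverdin reductase of the list, was tested but called in none of the comparisons. The lysosomal haem transporter Slc48a1 (HRG1), from the transporter list, had 84.1, 80.3 and 162 FPKM, again read from the authors' deposited table. Blvrb and Slc48a1, like both ferritin loci, were not called between the glucose media (q = 0.687 and q = 0.590) and were higher in galactose at the lowest q. The synthesis enzyme Cpox rose at each step, from 18.1 to 25.1 and 35.1 FPKM in the authors' deposited table.

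The iron chaperone gene Pcbp2 went from 199 to 249 and 292 FPKM in high glucose, low glucose and galactose, called at each step in the authors' deposited table. Pcbp1, which also delivers iron to ferritin, was at 333, 358 and 360.0 FPKM and was not called in the authors' deposited table. Vps35, of the retromer that recycles membrane proteins from endosomes, was at 78.2, 92.0 and 96.7 FPKM, called in both steps from high glucose in the authors' deposited table. Rbx1, a ring subunit of cullin ligases, was at 36.3, 34.5 and 30.2 FPKM and was called lower in galactose than in either glucose medium in the authors' deposited table. That list had 12 tested genes, of which 4 were higher and 2 lower from high glucose to galactose, beside 26.5% and 24.8% of all tested loci. Another list was drawn up as other transcripts with a described iron-responsive element, and 5 of its genes were tested. Whether the mouse transcript of each, Sdhb included, holds such an element was not checked. Sdhb and Cdc42bpa were the 2 called higher from high glucose to galactose, beside 26.5% of all tested loci. Their log2 changes were 0.32 and 0.18, and 45.2% and 65.6% of tested loci changed by more. Epas1 (HIF-2 alpha) had at most 0.041 FPKM and was not tested.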

How the data were processed

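PolyA RNA of 12 C2C12 libraries, 4 per medium, was sequenced after NEBNext Ultra preparation, per the labels' protocols. Alignment with TopHat2 2.0.10 and quantification with Cufflinks 2.2.0 and Cuffdiff, on build mm10, are named per the submitters' processing notes; settings, strand handling and normalization are not given in the sources used here. The authors deposited FPKM, 1 pooled value per group, with log2 fold changes (no pseudocount), a test score, which was not used, and p-values and q-values; the q-value was recomputed as Benjamini-Hochberg over all 44006 tests and differed by at most 5.3e-07. No library values or counts are in the table, so no test was rerun and the depth behind each value is unknown. Start positions were raised by 1.

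The members, lists, motifs and naming rule were chosen with earlier results of these data known. All 10 members were named, with up to 3 called genes of each list by size of change from high glucose to galactose (at least 1 FPKM), 12 genes whatever their call (1 gene that the rule takes is not reported here), and 3 loci most like each of Tfrc, Slc40a1 and Fth1 (mean of at least 5 FPKM). Of the list and marker symbols, 5 were found through a RefSeq synonym. Alternatives were a q below 0.01, a 2-fold minimum, a minimum of 1 FPKM, adjustment within comparisons, a pseudocount of 1 FPKM, centring, summed rows and, added later, equal summed FPKM. Adjustment and the hairpin search were tested on simulated data. Python 3.11.15, pandas 2.3.3, numpy 2.4.6 and matplotlib 3.10.9 were used.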

Additional observations from a re-analysis of the deposited data

How the results depend on the processing

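With a 2-fold minimum, the called members fell from 4 to 1 (Slc40a1) from high to low glucose, from 5 to 0 from high glucose to galactose and from 7 to 1 (Slc40a1) from low glucose to galactose, and calls in the wider lists from 136 to 17 over the 3 comparisons. That leaves out 14 of the 16 member calls by its own construction. At a q below 0.01 the calls of Ireb2 in low glucose and of Tfrc from high glucose to galactose ended, and adjustment within comparisons ended that of Ireb2. Values that were not called changed sign: centred on the median, Ncoa4 from low glucose to galactose went to -0.0027. The summed FPKM differed between groups, and scaling to equal sums, chosen after seeing the data, moved the median of all tested loci to -0.081, -0.166 and -0.074. Under it Ftl1, Aco1 and Ncoa4 went to -0.074, -0.036 and -0.040 from high to low glucose, Aco1 and Ncoa4 to -0.086 and -0.12 from high glucose to galactose and to -0.050 and -0.077 from low glucose to galactose, none of them called. From high glucose to galactose it took 0.172 from the log2 change of each locus, called or not. Of the called members, Steap3, Ftl1 and Tfrc went from 0.27, 0.44 and -0.18 to 0.098, 0.27 and -0.36. Fth1 and Fbxl5 went from 0.64 and 0.60 to 0.47 and 0.43 in that comparison. From high to low glucose Ireb2 went from 0.16 to 0.075, and no called member changed sign. A minimum of 1 FPKM ended no member's call. Scaling, centring and the pseudocount keep the authors' q, and each member has 1 row to sum, so these could not end a call. No paired analysis was possible because the table holds 1 pooled value per group, and for the same reason no library could be left out. The depth is unknown, so low values such as Slc40a1 have no stated precision.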

Other observations

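In the list of genes that tie iron to lipid peroxidation, 4 of 13 tested were called higher and 2 lower from high glucose to galactose, beside 26.5% and 24.8% of all tested loci, with a median log2 change of 0.0086. The genes named here were taken by the size of their change. Gch1, the first enzyme of tetrahydrobiopterin synthesis, went from 3.04 FPKM in high glucose to 4.13 FPKM in low glucose and 14.9 FPKM in galactose in the authors' deposited table. Slc7a11, the cystine importer, went from 4.26 to 7.004 and 16.3 FPKM, and Acsl4, which activates polyunsaturated fatty acids, from 16.1 to 14.1 and 12.4 FPKM in the same order in the authors' deposited table. Each of the 3 was called at every step.

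Of 12 transcription factors known to act on iron genes, 6 were called higher and 2 lower from high glucose to galactose. Among all tested loci 26.5% were higher and 24.8% lower. Nfe2l2 (NRF2) was called higher in galactose than in high glucose by a log2 change of 0.24 (q = 0.00124) in the authors' deposited table. Bach1, the haem-sensing repressor of Hmox1 and ferritin genes, was not called from high glucose to galactose (7.03 and 7.24 FPKM, q = 0.664) and was called higher from low glucose to galactose (6.28 and 7.24 FPKM, q = 0.0124) in the authors' deposited table. Myc was at 44.2, 72.8 and 78.2 FPKM and Tfeb, a regulator of lysosomal genes, at 7.59, 5.74 and 3.76 FPKM in high glucose, low glucose and galactose in the authors' deposited table. Atf4 went from 294 to 437 and 585 FPKM. Of 8 tested genes of systemic iron regulation, 3 were called higher and 3 lower from high glucose to galactose, with a median log2 change of -0.17. Hfe, the haemochromatosis gene, encodes a protein that binds the transferrin receptor. Its mRNA was at 0.450 and 0.345 FPKM in the glucose media and 1.22 FPKM in galactose in the authors' deposited table, called against both. These Hfe values lie near or below 1 FPKM and have no stated precision. Neo1, a co-receptor of the BMP pathway that sets hepcidin, was at 36.9, 48.4 and 51.0 FPKM, called in both steps from high glucose in the authors' deposited table. Smad5, a signal carrier of that pathway, was at 13.9, 13.6 and 10.9 FPKM and was called lower in galactose than in either glucose medium in the authors' deposited table.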
